A study of Mus musculus with 6 samples.

Results

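Interferon-stimulated genes are the genes that a cell switches on after interferon, and 37 of them were followed here in mouse ovary. They were chosen by name (sensors, transcription factors, antiviral effectors, interferon-induced GTPases, antigen processing genes and a chemokine) from the 56980 genes of the deposited table, and all 37 were found and passed the filter on low counts that left 17735 genes for testing. Ovaries of ICR mice, an outbred stock, were sequenced as poly(A) RNA in 6 libraries. Control animals (replicates 2, 3 and 4) received the injection solvent, a mixture of polyethylene glycol and physiological saline. The other animals (replicates 2, 3 and 5) received FNZ, a compound that the labels give by these letters only, in that solvent at 30 mg/kg by daily injection into the peritoneum over 7 days. The title of the study names blockade of T-type calcium channels as its subject. Ages are not stated in the sources used here, and the labels mention 3 ovaries per group without saying whether they came from separate mice, so p-values measure only the spread between these samples.

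Type I interferons signal through a receptor and the JAK kinases to a complex with STAT2 and IRF9, which binds the interferon-stimulated response element (ISRE) in promoters. Interferon gamma, made by T and NK cells, acts on the gamma-activated site (GAS). The induced proteins detect viral nucleic acid, block viral replication, load peptides on MHC class I and attract lymphocytes, and many are also present at a low level without infection.

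Of the 37 genes, 24 carried a gene ontology term naming interferon in the deposited table, against 1.66% of all tested genes, and 21 carried the term for defence against virus, against 0.936%. RefSeq promoter sequences (GRCm38.p6; 250 bases before to 50 after a start) matched 30 of the 37 by symbol. The core letters of the ISRE, GAAA followed by any 2 bases and GAAA again, searched on both strands, occurred in 17 of these 30 genes (56.7%) and in 3.99% of the 27025 genes with a promoter sequence. The letters TTCNNNGAA, the core of the GAS, which read the same on both strands, occurred in 10 of 30 (33.3%) against 9.55% of all genes. A match is a description of letters and not evidence of binding. The 5 promoters below belong to genes whose values carry the results. Isg15 and Ifit1 were among the genes that varied most between control libraries, Gbp2 and Rsad2 were 2 of the 3 genes that DESeq2 called lower, and Bst2 was the most abundant gene and had the highest fold change of the 37. Each line gives the 150 bases before the start, 5′ to 3′ in the direction of the gene, with matches to the ISRE core or its reverse complement in capitals.
Isg15, minus strand, chr4:156200819-156200968: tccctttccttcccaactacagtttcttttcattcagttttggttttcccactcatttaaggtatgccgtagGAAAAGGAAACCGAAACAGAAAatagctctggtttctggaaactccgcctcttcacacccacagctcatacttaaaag
Ifit1, plus strand, chr19:34640739-34640888: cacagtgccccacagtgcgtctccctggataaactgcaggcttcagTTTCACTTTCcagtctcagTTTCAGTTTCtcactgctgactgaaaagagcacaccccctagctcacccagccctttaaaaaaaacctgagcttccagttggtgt
Rsad2, minus strand, chr12:26456453-26456602: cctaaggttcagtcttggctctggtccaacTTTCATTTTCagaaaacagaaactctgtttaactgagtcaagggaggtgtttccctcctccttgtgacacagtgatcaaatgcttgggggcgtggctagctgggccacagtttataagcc
Gbp2, plus strand, chr3:142620513-142620662: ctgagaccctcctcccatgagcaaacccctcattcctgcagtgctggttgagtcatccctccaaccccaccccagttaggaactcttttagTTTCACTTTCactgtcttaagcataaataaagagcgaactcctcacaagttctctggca
Bst2, minus strand, chr8:71537473-71537622: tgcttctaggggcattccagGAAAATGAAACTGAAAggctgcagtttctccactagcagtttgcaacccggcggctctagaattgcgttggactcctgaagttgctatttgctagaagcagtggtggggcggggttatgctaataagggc
The Isg15 stretch holds 3 overlapping matches, the first 78 bases before the start, and Bst2 holds 2 overlapping matches, the first 130 bases before. Ifit1 holds 2 separate matches. Irf8, the 3rd gene that DESeq2 called, had no ISRE match in its promoter sequences, and 2 matches to the GAS letters, both farther from a start than the 150 bases printed for the other genes.

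Libraries held 19333493 to 23406628 expected counts, and library size scaling moved them by little (TMM factors 0.9764 to 1.0193). Ovarian identity was present in every library: Inha, the inhibin alpha subunit of granulosa cells, measured 2780 to 3620 CPM (counts scaled to library size with TMM), and Gdf9, an oocyte growth factor, 99.9 to 216 CPM. At a Benjamini-Hochberg adjusted p under 0.05, 0 of the 17735 genes (0.0%) were called by the quasi-likelihood test of edgeR with all libraries, and 4107 genes (23.2%; 12.0% higher) had an unadjusted p under 0.05. DESeq2 called 1497 (10.1%), and edgeR called 3230 (17.6%) without FNZ replicate 3. Pearson's r of log2 CPM between libraries was taken over all tested genes (across genes, given as a description). For FNZ replicate 3, the library left out there, it was 0.9773, 0.9754 and 0.9642 with control replicates 2, 3 and 4. With FNZ replicates 2 and 5 it was 0.9642 and 0.9658. FNZ replicate 3 was thus nearer to control replicates 2 and 3 than to its own group, and control replicate 4 was not nearer.

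The 37 genes differed chiefly between libraries of the same group. Control replicate 3 was the lowest control library in 37 of 37 genes, and FNZ replicate 2 was the highest FNZ library in 37 of 37. Both held together in 11.1% of all tested genes. In 35 of 37 genes, control replicates 2 and 4 and FNZ replicate 2 each lay above control replicate 3 and FNZ replicates 3 and 5, an order that 4.21% of tested genes had. The exceptions were Irf8 and Bst2 in this order, and both kept the positions of control replicate 3 and FNZ replicate 2 within their groups. The median deviation of the 37 genes from their mean over all libraries (log2 scale) was 0.70 in control replicate 2, -0.83 in control replicate 3 and 1.05 in control replicate 4. In FNZ replicates 2, 3 and 5 it was 0.68, -0.67 and -0.69. These genes vary together and come from the same 6 libraries, so the counts describe the libraries and not 37 separate observations.

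**Figure D1:**
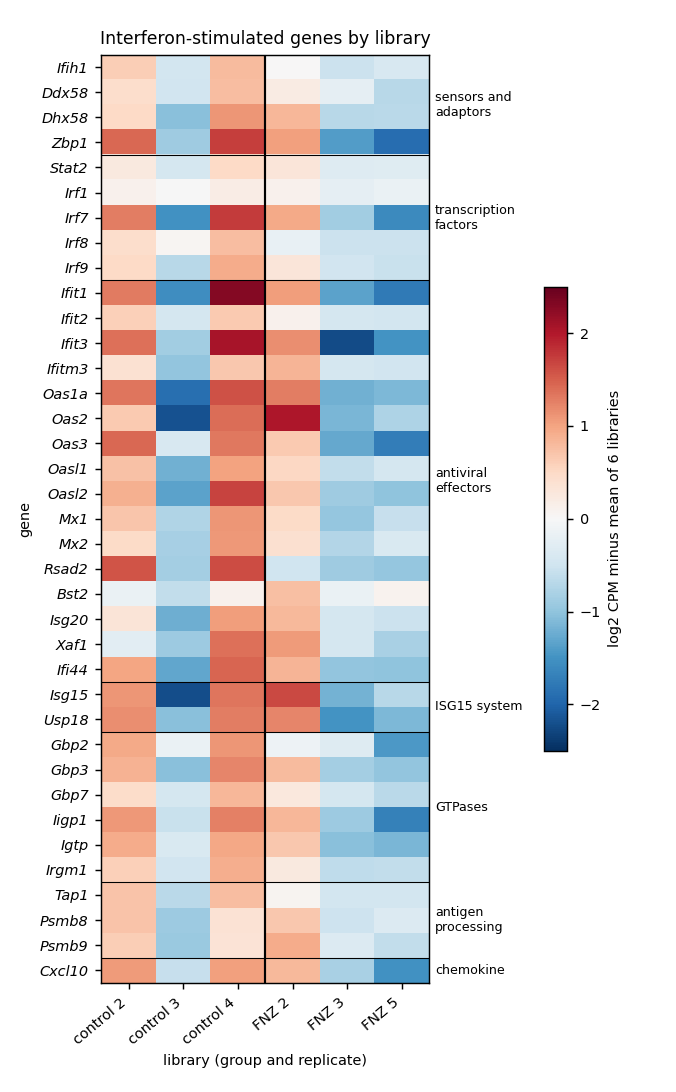
Log2 CPM of each gene minus its mean over the 6 libraries (colour; red is higher), for the 37 genes in rows by role and the libraries in columns, with a line between control and FNZ. Control 2, control 4 and FNZ 2 are mostly red, and control 3, FNZ 3 and FNZ 5 mostly blue.

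The spread inside a group was correspondingly wide. The within-group SD of log2 CPM had a median of 0.90 over the 37 genes, against 0.23 over all tested genes and 0.20 over the 14960 tested genes whose mean lay in the same range of 1.19 to 294 CPM. Of the 37, 27 were in the top 10% of all tested genes by this SD. The highest control library exceeded the lowest by a median of 3.56-fold over the 37 genes and 1.26-fold over all tested genes. Among FNZ libraries these medians were 2.70-fold and 1.37-fold. Ifit1, Isg15 and Oas2 had the widest control ranges, with 14.3-fold, 11.9-fold and 11.9-fold between the highest and lowest control. Irf1 lay at the other end, with a 1.14-fold control range and an SD of 0.14, at percentile 27.1 of all tested genes.

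**Figure D2:**
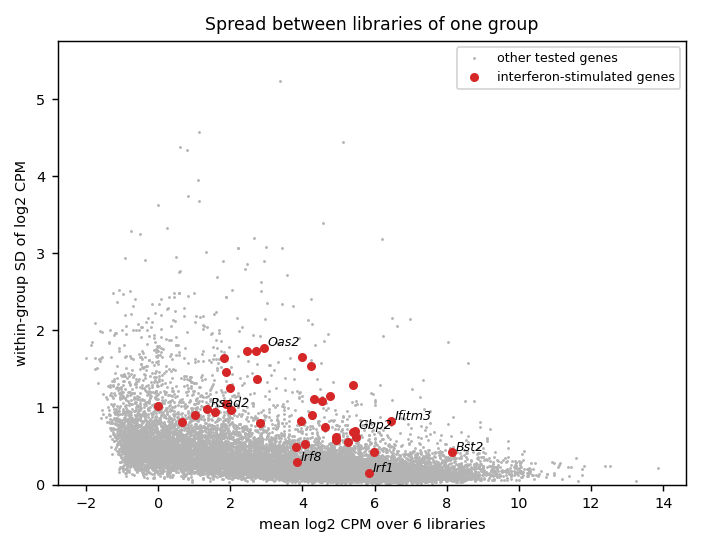
Within-group SD of log2 CPM (vertical axis) against mean log2 CPM over 6 libraries (horizontal axis) for each tested gene, with the 37 interferon-stimulated genes in red. Of the red points, 27 are in the top 10% of all tested genes by this SD. Irf1 (0.14) and Irf8 (0.29) are the lowest, and some grey points lie as high as the red ones.

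Against this spread, FNZ ovaries had lower fitted values in 34 of 37 genes (48.8% of all tested genes were lower), with a median log2 fold change of -0.71 against 0.01 over all tested genes. edgeR called 0 of the 37, with adjusted p from 0.131 (Irf8) to 0.999 (Psmb9). An unadjusted p under 0.05 was reached by 3 genes (Irf8, Rsad2 and Gbp2), all lower, where 11.2% of tested genes were lower by that rule. DESeq2 called the same 3 genes lower and 0 higher among the 36 to which it gave an adjusted p, where 5.57% of genes were called lower and 4.54% higher. Without FNZ replicate 3, edgeR called 0 of the 37 in either direction, where it called 7.99% of genes higher and 9.64% lower. With the correction for gene length added it again called 0 of the 37, where it called 6.61% of genes (2.53% higher, 4.08% lower). In the authors' deposited table the same 3 had an adjusted p under 0.05 (2.6% of genes listed there; 1.44% lower and 1.16% higher), and Gbp2 and Rsad2 were marked significant (0.398%). By CPM, FNZ libraries lay wholly below controls in 1 gene, Irf8, against 13.8% of tested genes (29.6% did not overlap in either direction). By TPM this also held in Gbp2, Irf1 and Rsad2, and the share over all genes was not computed on that scale. The median log2 fold change of the 37 was -0.36 without control replicate 4, -0.46 without FNZ replicate 5 and -1.10 without FNZ replicate 2.

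**Figure D3:**
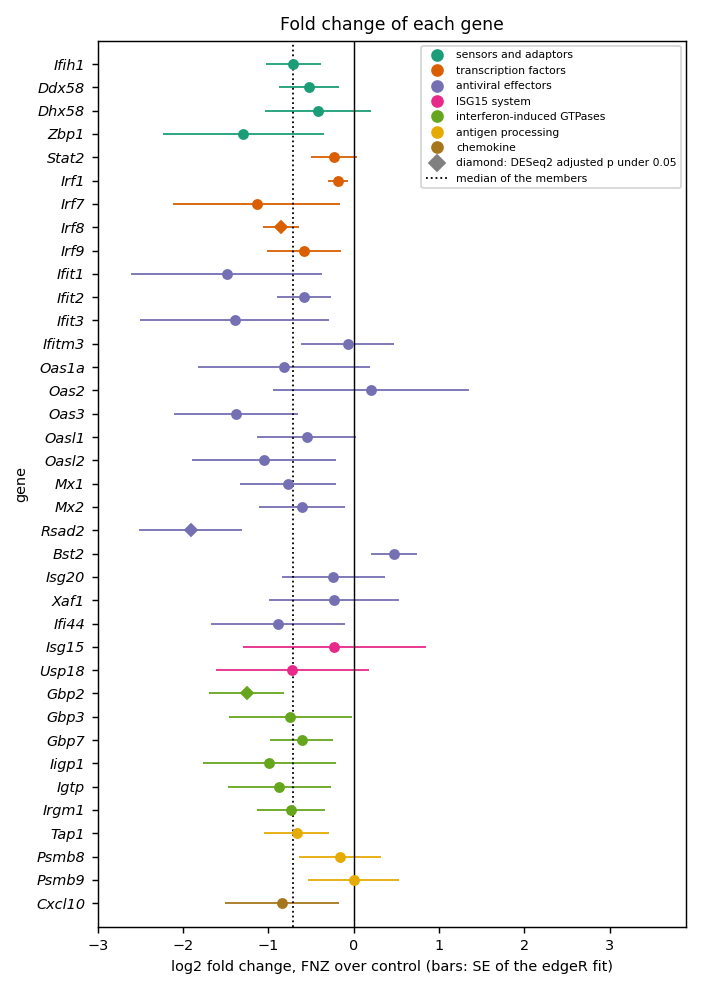
Log2 fold change of FNZ over control (horizontal axis) with the SE of the edgeR fit for each of the 37 genes, coloured by role; diamonds mark the 3 genes with a DESeq2 adjusted p under 0.05 (Irf8, Rsad2 and Gbp2). Points lie mostly left of 0, around the dotted median of -0.71, with long error bars.

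Among the transcription factors, Irf8, a factor of myeloid cells and of interferon gamma responses, measured 19.5, 14.9 and 24.4 CPM in control replicates 2, 3 and 4 and 12.6, 9.95 and 9.87 CPM in FNZ replicates 2, 3 and 5. Every FNZ library lay below every control library. Its log2 fold change was -0.86 ± 0.21 (SE; edgeR adjusted p = 0.131, DESeq2 adjusted p = 0.00922), and the smallest edgeR adjusted p with 1 library left out was 0.0618. Irf7, which amplifies type I interferon production, measured 45.0, 6.45 and 62.5 CPM in controls and 35.5, 10.2 and 6.16 CPM with FNZ. Control replicate 3 thus lay near the lowest FNZ library, and the log2 fold change of -1.14 ± 0.98 did not pass (edgeR adjusted p = 0.524). Irf9, the DNA-binding partner of STAT2, measured 59.6, 26.1 and 79.5 against 51.5, 30.2 and 28.5 CPM. Stat2, which forms the complex with Irf9, measured 74.0, 46.4 and 88.3 against 77.4, 50.2 and 50.8 CPM. Both followed the same order of libraries over a narrower range, with log2 fold changes of -0.59 ± 0.43 and -0.23 ± 0.27. Irf1, an early target of interferon gamma, was nearly level by CPM across the 6 libraries, at 62.0, 57.7 and 65.7 CPM in controls and 62.6, 49.6 and 51.5 CPM with FNZ. By TPM it measured 52.15, 46.49 and 59.09 in controls and 39.32, 39.65 and 35.04 with FNZ. Exons of Irf1 and Irf7 overlap other genes on the opposite strand.

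The sensors recognise viral nucleic acid in the cytoplasm. Ifih1, which encodes MDA5 and binds long double-stranded RNA, measured 25.4, 12.0 and 28.7 CPM in controls and 16.6, 11.4 and 12.5 CPM with FNZ (edgeR log2 fold change -0.71 ± 0.33, adjusted p = 0.242). Ddx58, which encodes RIG-I, measured 51.5, 27.2 and 64.7 against 43.6, 32.6 and 23.6 CPM (-0.52 ± 0.35). In both genes control replicate 3 lay inside the FNZ range. Dhx58, a regulator of these helicases, and Zbp1, a sensor of Z-form nucleic acid that can trigger cell death, had group means of 5.27 against 3.95 CPM and 7.69 against 3.15 CPM. Zbp1 had a log2 fold change of -1.29 ± 0.95.

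The antiviral effectors held genes of wide and of narrow range, from Oas2 (within-group SD 1.78 on the log2 scale) to Bst2 (0.42). Ifit1, whose protein binds viral RNA lacking a host-type cap, measured 13.3, 1.84 and 26.4 CPM in controls and 11.1, 2.13 and 1.57 CPM with FNZ. Control replicate 4 was 14.3-fold above control replicate 3, whereas the group means were 13.8 and 4.95 CPM, and the log2 fold change of -1.49 ± 1.12 did not pass (edgeR adjusted p = 0.461). Ifit3, its partner, measured 40.5, 8.55 and 65.1 against 34.7, 3.29 and 5.54 CPM. Oasl2, a relative of the oligoadenylate synthetases, measured 77.8, 16.7 and 136 against 67.7, 22.7 and 21.1 CPM. Xaf1, which promotes apoptosis, measured 19.1, 12.2 and 60.2 against 48.0, 17.0 and 13.1 CPM. In these 4 genes FNZ replicate 2 stood well above control replicate 3.

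Rsad2, which encodes the antiviral enzyme viperin, was different in FNZ replicate 2. It measured 7.27, 1.36 and 7.63 CPM in controls and 1.73, 1.33 and 1.25 CPM with FNZ, so that FNZ replicate 2 lay with the low libraries and control replicate 3 lay inside the FNZ range. The log2 fold change was -1.91 ± 0.61 (edgeR adjusted p = 0.145, DESeq2 adjusted p = 0.019). Oas3, an oligoadenylate synthetase that activates RNase L, measured 2.34, 0.658 and 2.14 against 1.36, 0.355 and 0.261 CPM (-1.38 ± 0.72, edgeR adjusted p = 0.292), and DESeq2 gave it no adjusted p. Oas2, of the same family, was among the 3 genes with a positive value, because FNZ replicate 2 was the highest of all libraries at 30.6 CPM, above control replicate 4 at 19.8 CPM. Its log2 fold change was 0.20 ± 1.15, and -1.495 without FNZ replicate 2. The other effectors (Ifit2, Ifi44, Oas1a, Oasl1, Mx1, Mx2 and Isg20) had log2 fold changes from -0.89 (Ifi44) to -0.24 (Isg20). The smallest edgeR adjusted p of these 7 was 0.304, for Ifit2.

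The membrane-bound effectors were the most abundant. By TPM, which is scaled for gene length and allows genes to be compared, Bst2 had a mean level of 696 and Ifitm3 of 294, followed by Psmb8 at 47.2, Irf1 at 45.3 and Oasl2 at 40.9, and Oas3 was lowest at 0.415. Bst2, or tetherin, which holds budding viruses at the cell surface, measured 251, 184 and 303 CPM in controls and 473, 252 and 301 CPM with FNZ. The edgeR value was 0.47 ± 0.27 on the log2 scale (adjusted p = 0.333), or 0.07 after correction for gene length. Ifitm3, which blocks viral fusion in endosomes, measured 114, 44.3 and 140 against 157, 64.1 and 62.8 CPM, and its log2 fold change was -0.07 ± 0.55. Both are short transcripts (792 and 678 bases, against a median of 2705 over tested genes). The correction for gene length lowered the Ifitm3 value as well, to -0.54.

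The ISG15 system attaches a ubiquitin-like protein to targets and removes it again. Isg15, the modifier, measured 13.6, 1.36 and 16.1 CPM in controls and 19.9, 2.80 and 3.92 CPM with FNZ. Usp18, the protease that removes it and also dampens receptor signalling, measured 14.6, 3.16 and 15.8 against 15.1, 2.31 and 2.98 CPM. In both genes FNZ replicate 2 was level with or above the 2 high controls, and the log2 fold changes of -0.23 ± 1.07 and -0.72 ± 0.90 were smaller than their errors.

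**Figure D4:**
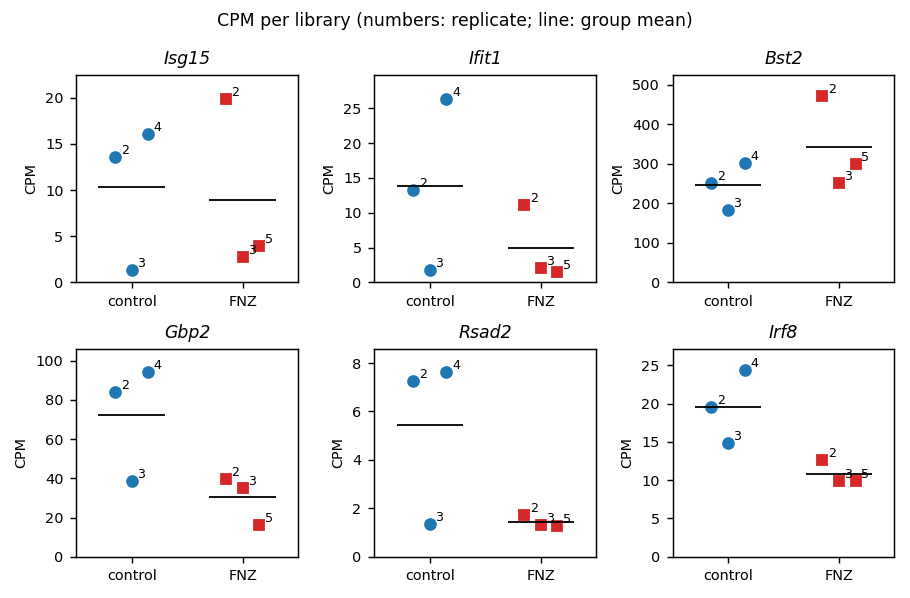
CPM in each library (points labelled by replicate number; horizontal lines are group means) for Isg15, Ifit1, Bst2, Gbp2, Rsad2 and Irf8. Only Irf8 has groups that do not overlap among these 6; in Isg15 and Ifit1, control 3 lies with FNZ 3 and FNZ 5.

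The interferon-induced GTPases, which attack the membranes around intracellular pathogens and respond strongly to interferon gamma, had negative fold changes in 6 of 6 genes, with a median of -0.81. Gbp2, a guanylate-binding protein, measured 83.7, 38.8 and 94.2 CPM in controls and 39.8, 34.9 and 16.2 CPM with FNZ. Control replicate 3 lay just below FNZ replicate 2, and the other controls lay above all FNZ libraries. The log2 fold change was -1.25 ± 0.44 (edgeR adjusted p = 0.176, DESeq2 adjusted p = 0.0145, or 0.116 with the length correction in DESeq2). Irgm1, an immunity-related GTPase that regulates the others, measured 67.1, 31.9 and 82.9 against 52.2, 28.4 and 28.8 CPM (-0.73 ± 0.40, edgeR adjusted p = 0.320). Iigp1 and Igtp, effectors of the same family, measured 57.3, 18.5 and 64.9 against 48.3, 14.4 and 8.36 CPM, and 36.1, 14.6 and 37.0 against 30.2, 9.24 and 8.57 CPM. In both genes FNZ replicates 3 and 5 lay below control replicate 3. Gbp3, another guanylate-binding protein, measured 36.0, 9.52 and 46.2 against 34.0, 11.0 and 9.92 CPM, with control replicate 3 the lowest of the 6 libraries. Gbp7 measured 41.9, 22.3 and 54.1 against 36.3, 22.3 and 19.0 CPM, and control replicate 3 was level with FNZ replicate 3.

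Antigen processing genes kept the order of libraries in 3 of 3 genes. Tap1, a subunit of the peptide transporter, measured 50.2, 19.2 and 52.2 CPM in controls and 31.9, 22.3 and 22.3 CPM with FNZ (edgeR log2 fold change -0.67 ± 0.38, adjusted p = 0.336). Psmb8 and Psmb9, catalytic subunits of the immunoproteasome, had log2 fold changes of -0.16 ± 0.48 and 0.00 ± 0.53. Psmb8 measured 39.8, 13.0 and 31.4 against 39.1, 17.1 and 19.2 CPM, with control replicate 3 the lowest of the 6 libraries. Exons of Tap1 and Psmb9 overlap each other on opposite strands, so reads of the 2 cannot be told apart there unless counting used strand. Cxcl10, a chemokine that attracts T cells, measured 7.44, 2.37 and 7.23 against 6.23, 2.04 and 1.25 CPM (-0.84 ± 0.67, edgeR adjusted p = 0.475).

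Genes upstream of the 37 were examined next. Control replicate 3 was the lowest control and FNZ replicate 2 the highest FNZ library in 4 of 9 receptor and JAK kinase genes, 8 of 19 nucleic acid sensing genes and 3 of 8 negative regulators. Over all tested genes this share was 11.1%. Of 21 interferon genes listed, 17 had 0 counts in all libraries, Ifnb1 among them, which allows up to 3 counts per library, or 0.127 to 0.157 CPM. The highest count of any of them was 5, for Ifng in control replicate 4. Receptor and JAK kinase genes (9 tested) had a median log2 fold change of 0.00, with 6 positive and 3 negative, and library medians between -0.05 and 0.08. Of these, Il10rb, a shared receptor chain, measured 28.9 ± 1.19 CPM in controls and 44.1 ± 9.79 CPM with FNZ (SD, n = 3 each; edgeR adjusted p = 0.133, DESeq2 adjusted p = 0.0316). Jak2 measured 63.6 ± 6.35 and 55.4 ± 0.645 CPM (edgeR adjusted p = 0.279). Genes of nucleic acid sensing upstream of interferon (19 tested, 13 negative, median -0.31) held 5 whose FNZ libraries lay below all controls (5 of 19, against 13.8% of all tested genes). Among them Tlr9, the endosomal DNA receptor, measured 2.47, 1.18 and 3.57 CPM in controls and 0.314, 0.533 and 0.157 CPM with FNZ (edgeR log2 fold change -2.81 ± 0.58, adjusted p = 0.131), and DESeq2 gave it no adjusted p. Trim25, the ubiquitin ligase that activates RIG-I, measured 117 ± 16.2 and 73.8 ± 9.15 CPM (edgeR adjusted p = 0.131, DESeq2 adjusted p = 0.00334). Negative regulators (8 tested) split evenly, 4 positive and 4 negative, and Ptpn11 and Ptpn2, phosphatases of this list, had values of -0.45 and 0.40 on the log2 scale, with edgeR adjusted p of 0.150 and 0.215. With all libraries edgeR called 0 genes in each of these lists. Without FNZ replicate 3 it called 1 receptor gene higher, 4 sensing genes lower and 1 higher, and 1 negative regulator in each direction, where 9.64% of all genes were called lower and 7.99% higher. With the length correction added, 2 sensing genes were lower and 0 higher, and the other counts were as before.

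Other interferon-stimulated genes were listed beside the 37. Of 35 tested, 27 had a negative fold change, with a median of -0.51. While edgeR called 0, DESeq2 called 7 lower and 0 higher (5.57% and 4.54% of all genes). With the length correction DESeq2 called 1 lower and 0 higher. Of the 17735 genes past the filter on low counts it then called 467 lower and 446 higher. Control replicate 3 was the lowest control and FNZ replicate 2 the highest FNZ library in 32 of the 35 (11.1% of all tested genes). Dtx3l, a ubiquitin ligase, measured 42.7, 26.8 and 50.8 against 25.7, 23.9 and 23.5 CPM, and Gbp4 measured 27.9, 16.1 and 60.0 against 14.8, 8.62 and 8.41 CPM. In both genes the groups did not overlap (edgeR adjusted p = 0.140 and 0.143, DESeq2 adjusted p = 0.031 and 0.00354). Without FNZ replicate 3 edgeR gave adjusted p of 0.137 and 0.201. FNZ libraries lay wholly below controls in 4 of the 35, against 13.8% of all tested genes. The MHC class I pathway (15 tested, 11 negative, median -0.19) had control replicate 3 lowest among controls in 15 of 15 genes (29.7% of all tested genes). Its genes with the smallest p were Erap1, which trims peptides, at 94.3 ± 10.8 and 65.7 ± 8.62 CPM, and the proteasome activator Psme2, at 74.1 ± 7.86 and 97.6 ± 19.9 CPM (edgeR adjusted p = 0.132 and 0.189), in opposite directions. DESeq2 gave adjusted p of 0.0205 and 0.156, and edgeR without FNZ replicate 3 gave 0.0274 and 0.0865.

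Several lists of leukocyte markers moved with part of this pattern, whereas neutrophil markers were higher with FNZ. In bulk tissue, fewer cells of a type and less RNA per cell cannot be told apart. All 12 macrophage markers had negative fold changes (median -0.59). DESeq2 called 5 of them lower, where it called 5.57% of all genes lower. With the length correction it called 3 of the 12 lower, where it called 467 lower of the 17735 genes past the filter on low counts. By edgeR 0 were called, or 1 of the 12 (lower) without FNZ replicate 3, where 9.64% of all genes were called lower. The summed levels of these markers were 583.7, 334.7 and 495.9 TPM in control and 274.1, 403.8 and 261.4 TPM in FNZ libraries. Replicate 3 was thus the highest FNZ library in this sum, to which Lyz2 alone gave 219.93 TPM there and 85.41 TPM in FNZ replicate 2. On the log2 CPM scale the median deviation of these markers was -0.18, -0.22 and -0.47 in FNZ replicates 2, 3 and 5. Replicate 2 was thus highest by that measure, as it was by CPM in each of the 37 genes. The 5 markers of all leukocytes had summed levels of 104.6, 55.15 and 116.7 TPM in control and 54.84, 49.56 and 27.59 TPM in FNZ libraries. Control replicate 3 was thus the lowest control here too, whereas FNZ replicate 2 lay beside control replicate 3 on this scale. Their median deviation on the log2 CPM scale was 0.17 in FNZ replicate 2, against 0.58 and 0.71 in control replicates 2 and 4 and -0.30 in control replicate 3. T and NK cell markers summed to 21.16, 10.58 and 16.57 TPM in control and 14.99, 10.92 and 4.57 TPM in FNZ libraries. No gene of these 3 lists was at 0 in all libraries, and their most abundant members were Lyz2 and C1qa (macrophage), Cd52 and Laptm5 (leukocyte) and Trac and Cd4 (T cell). Control replicate 3 was lowest and FNZ replicate 2 highest in their groups in 11.1% of all tested genes. The same held in 7 of 12 macrophage, 3 of 5 leukocyte and 5 of 7 T and NK cell markers. It held in 3 of 7 dendritic and 0 of 3 B cell markers, and in 12 of 15 MHC class I genes. Granulosa, theca, oocyte, endothelial and neutrophil markers had 0 of 10, 0 of 6, 0 of 8, 0 of 7 and 0 of 3. The first part of this pattern, control replicate 3 as the lowest control, held in 7 of 7 endothelial markers (29.7% of all tested genes). It held in 4 of 10 granulosa, 1 of 6 theca, 0 of 8 oocyte and 1 of 3 neutrophil markers. Dendritic cell markers had the most negative median of the marker lists, -1.10, with 6 of 7 genes negative, 3 of 7 non-overlapping and lower (13.8% of all tested genes) and 1 called lower by DESeq2. The 2 most abundant of them changed little, and their groups overlapped. Zbtb46 measured 37.0 ± 3.83 and 34.6 ± 3.65 CPM, and Clec9a 8.63 ± 1.43 and 9.88 ± 1.48 CPM (control and FNZ, SD). Their log2 fold changes were -0.10 and 0.20 (edgeR adjusted p = 0.669 and 0.587). The most abundant genes of the lists other than B cells were Zbtb46 and Clec9a (dendritic), Inha and Hsd17b1 (granulosa), Hsd3b1 and Cyp11a1 (theca), Gdf9 and Zp3 (oocyte), Pecam1 and Cdh5 (endothelial) and S100a9 and S100a8 (neutrophil). Neutrophil markers (3 tested) had positive fold changes in 3 of 3 genes, with a median of 0.79. DESeq2 called 1 of them higher (4.54% of all genes). S100a9 measured 1.87, 0.833 and 0.536 CPM in controls and 4.40, 12.9 and 1.78 CPM with FNZ (edgeR adjusted p = 0.145, DESeq2 adjusted p = 0.00972). The part of immune cell content in the values of the 37 genes was not tested.

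**Figure D5:**
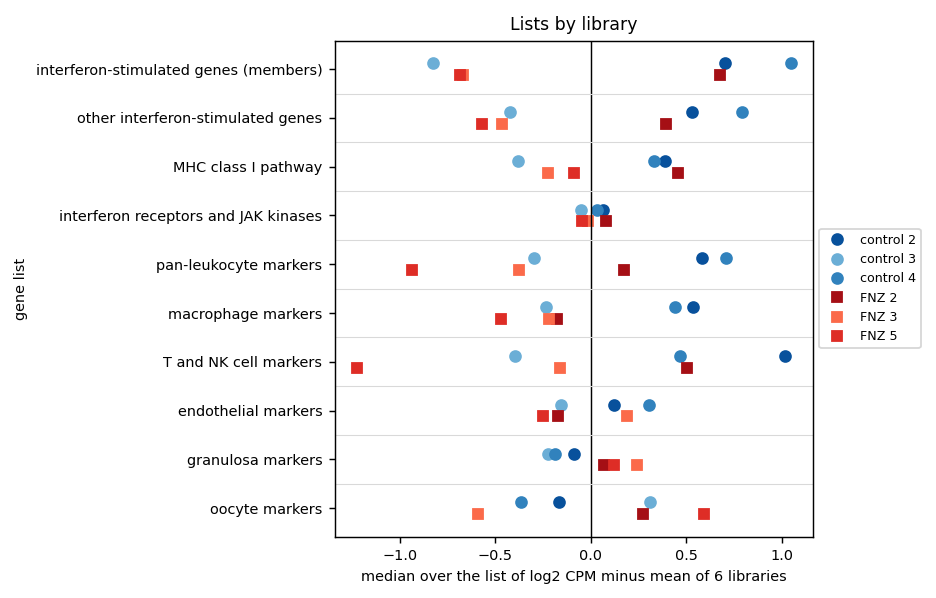
Median over each list of log2 CPM minus the mean of 6 libraries (horizontal axis), with 1 point per library (circles control, squares FNZ). For the interferon-stimulated genes control 2, control 4 and FNZ 2 lie between 0.68 and 1.05 and the other libraries between -0.83 and -0.67; receptor genes lie near 0, and oocyte and granulosa markers show another order.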

How the data were processed

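RNA of mouse ovaries was measured in 6 libraries (3 control, 3 FNZ), grouped by sample title. The submitters' processing notes name bcl2fastq 2.20, DESeq2 1.38.3 and the build GRCm39. No source used here states the aligner, the counter, the annotation or the strand setting. The deposited table holds expected counts per gene (12.0% to 14.8% of values are not whole), TPM per library, and the authors' log2 fold change, fold ratio, p-value and adjusted p-value. The fold ratio and the authors' group mean TPM were not used. Counts were not corrected for PCR copies, so the floor of 3 counts covers counting error only.

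Rounded expected counts entered edgeR 4.0.16 under R 4.3.3 (TMM, filterByExpr, robust glmQLFit, two-sided quasi-likelihood F test, Benjamini-Hochberg adjustment over 17735 genes, calls under 0.05), a design written for counts; the SE is the fold change over the square root of F. Alternatives were RLE and upper quartile scaling, DESeq2 1.42.0, limma 3.58.1 (voom; or log2 TPM with a pseudocount of 1), other filters, robust = FALSE, a loess trend (span 0.3) on gene length as offset, replicate blocks and each library left out. The fits were tested on simulated data. Members, lists and tests were chosen with earlier results of these data known. Every member is named; values per library are given for the 2 members with the smallest p per role, those of at least 20 CPM and those whose groups do not overlap. Ifit1, the widest ranges and the library orders were chosen after values were seen. Of related lists the 2 genes with the smallest p are named, of marker lists the 2 most abundant. Some genes that this rule selects are not reported here.

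In GENCODE M21 (GRCm38), 8 members share at least 10% of their 25-base words with other genes, so their counts may be split: Oas1a (72.5%, mostly with Oas1g), Ifit3 (66.1%, Ifit3b), Ifitm3 (25.4%), Igtp (17.7%), Isg15 (17.2%), Gbp7 (15.8%), Ifit1 (12.4%) and Mx1 (10.8%). Exons of 3 members overlap another gene on the same strand and of 10 on the opposite strand.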

Additional observations from a re-analysis of the deposited data

How the results depend on the processing

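No member was called by edgeR or limma under any scaling, filter, block or left-out library, and the median of the 37 stayed negative in all alternatives. It ran from -1.10 to -0.36 with 1 library left out and was -0.77 with the length offset. Members called numbered 3 with DESeq2, 2 with DESeq2 and the length offset (Irf8 and Rsad2) and 3 at an unadjusted p under 0.05. Over all genes, calls numbered 1497 with DESeq2 and 913 with DESeq2 and the length offset (446 higher, 467 lower). They numbered 183 with no filter on low counts, 2 with limma voom, 1 with limma on TPM and 4107 at an unadjusted p under 0.05. They ranged from 0 to 3230 with 1 library left out, the highest without FNZ replicate 3, which gave 1210 together with the length offset. The cause was not tested.

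The title numbers are shared by replicates 2 and 3 only, and deviations of same-numbered libraries correlated at -0.085 and -0.135. Library pairs that share neither number ran from -0.212 to 0.372. So few pairs inside that range cannot show whether the numbers pair the samples. The third pair by library name number correlated at -0.321. With a replicate block by title number, which compares replicates 2 and 3 alone, edgeR called 24 genes and 0 members, and the median of the members was -0.003 (18 positive, 19 negative). With a replicate block by library name number it called 2 genes and 0 members (median -0.63). Under the block by title number, log2 fold changes changed sign for Ddx58 (0.007), Dhx58 (0.35), Stat2 (0.088), Irf7 (0.14), Ifitm3 (0.50), Oas1a (0.25), Oasl1 (0.14), Oasl2 (0.12), Mx2 (0.013), Isg20 (0.63), Xaf1 (0.91), Ifi44 (0.058), Isg15 (0.76), Gbp3 (0.059) and Psmb8 (0.18).

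With 1 library left out, values that changed sign ran from -1.098 to 0.085 for Dhx58, -0.64 to 0.26 for Ifitm3, -1.495 to 0.912 for Oas2, -0.80 to 0.33 for Isg20, -1.01 to 0.73 for Xaf1, -1.62 to 0.24 for Isg15, -0.62 to 0.18 for Psmb8 and -0.62 to 0.31 for Psmb9. Without FNZ replicate 3 and with the length offset, Stat2 was 0.047 and Psmb9 -0.13. Oas2 was -0.10 with limma on TPM. Psmb9, at 0.002, became -0.014 with RLE, -0.023 with DESeq2, -0.042 with voom, -0.002 with no filter, -0.27 with the length offset, -0.26 with that offset in DESeq2, -0.29 with limma on TPM and -0.018 with the block by library name number. Psmb9 and these genes therefore have no settled direction. With 3 libraries a group and a median within-group SD of 0.90 on the log2 scale, precision is limited by the spread between libraries.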

Other observations

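Genes outside the 37 were ranked by how closely they followed the median deviation of the 37 over the 6 libraries (Pearson's r over 6 points that all come from the same libraries, given as a description and chosen after the values were seen). The 37 genes themselves build this profile, so their own r is not given. Of 10829 other genes with at least 10 CPM on average, the closest were Lgals9 (r = 0.992), Rtp4 (0.989), Rac2 (0.987), Sp100 (0.986), Uba7 (0.985) and Ifi47 (0.984). Rtp4, a transporter chaperone that interferon induces, measured 36.4, 8.16 and 53.1 CPM in control replicates 2, 3 and 4 and 50.6, 10.6 and 10.3 CPM in FNZ replicates 2, 3 and 5. Uba7, the enzyme that activates ISG15, measured 24.7, 12.0 and 29.1 against 27.9, 13.7 and 14.8 CPM. Rac2, a GTPase of blood cells, measured 15.7, 7.06 and 16.4 against 16.1, 8.57 and 7.73 CPM.

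The same order of libraries also appeared in further genes that were in none of the lists used here. Ighm, the immunoglobulin heavy chain of IgM (r = 0.969), measured 17.3, 6.80 and 34.1 CPM in control and 21.1, 8.70 and 9.14 CPM in FNZ libraries. Serping1, an inhibitor of complement (r = 0.981), measured 195, 122 and 211 against 183, 142 and 139 CPM. Dcn, the stromal proteoglycan decorin (r = 0.952), measured 765, 546 and 814 against 690, 600 and 611 CPM. Their log2 fold changes for FNZ over control were -0.58, -0.19 and -0.16, and none passed edgeR's test (adjusted p = 0.611, 0.635 and 0.580).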
